A study of Mus musculus with 20 samples.

Results

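The endothelial markers described here are 10 genes, Pecam1, Cdh5, Kdr, Flt1, Tek, Emcn, Vwf, Cldn5, Esam and Gpihbp1, out of 46078 genes in the deposited counts. They were chosen by symbol: a row of the count table is a member if its Ensembl identifier carries one of these symbols, and all 10 were found and passed the filter on low counts. The counts come from translating ribosome affinity purification with sequencing (TRAP–seq), in which GFP-tagged ribosomes of adipocytes are pulled down from a lysate of whole epididymal adipose tissue (epiAT) and the mRNA on them is sequenced. Endothelial markers are genes of another cell type of the same depot, so each value below is a level of their mRNA in an adipocyte ribosome pulldown and not in sorted endothelial cells. In such bulk samples, fewer endothelial cells in the lysate and less of the mRNA per cell cannot be told apart.

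All 20 mice were male AdipoERCre x NuTRAP mice on a C57BL/N background, and the chow fed in the WL phase, to controls too, was another product than the chow before it. The tagged ribosomal protein is switched on by a tamoxifen-inducible Cre under the adipocyte promoter of Adipoq, and every mouse, controls included, was given tamoxifen 2 times at 4 to 5 weeks of age followed by a washout of 2 weeks. In the short arm there were 3 mice per group: C had chow and was 18 weeks old, H had 12 weeks of high-fat diet (HFD) and was 18 weeks old, CC_s had chow and was 26 weeks old, and HC had 12 weeks of HFD followed by 8 weeks of chow and was 26 weeks old. In the long arm there were 2 mice per group: CC_l had chow and was 31 weeks old, HH had 25 weeks of HFD and was 31 weeks old, CCC had chow and was 39 weeks old, and HHC had 25 weeks of HFD followed by 8 weeks of chow and was 39 weeks old. The change from HFD to chow is the weight loss (WL) of this study. The libraries of the arms are numbered in different series in the labels (S086 in the short and S087 in the long arm), so every HFD or WL group was set against the chow group of its own arm and age.

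Endothelial cells line blood vessels, and in adipose tissue a dense capillary bed runs between the adipocytes. The 10 markers cover several parts of their biology. Pecam1 (PECAM-1), Cdh5 (VE-cadherin), Cldn5 (claudin-5) and Esam hold neighbouring endothelial cells together at their junctions. Kdr and Flt1 are receptors for vascular endothelial growth factors (VEGF), Kdr being the main signalling receptor and Flt1 binding the ligand tightly, and Tek (TIE2) is the receptor for angiopoietins. Emcn (endomucin) is a sialomucin of the surface of capillary and venous endothelium, Vwf (von Willebrand factor) is stored in endothelial granules and helps platelets to adhere, and Gpihbp1 anchors lipoprotein lipase, which is made by adipocytes, to the luminal side of the capillary wall. In mm10 the genes lie on 9 chromosomes, with Kdr and Flt1 both on chromosome 5 and the others each on a chromosome of their own. Only Cdh5 overlaps another annotated gene, the antisense Gm29682, with which it shares 0 exonic bases. As reads were not assigned to a strand, reads from the shared intronic stretch cannot be told apart by strand.

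Many endothelial genes are controlled by transcription factors of the ETS family, which bind sequences with a GGAA core. Because the markers moved together (below), the 250 bases upstream of the RefSeq start site (GRCm38.p6) were searched for AGGAAG on both strands. Of the 10 markers, 5 were in the promoter table used here (Kdr, Flt1, Tek, Emcn and Cldn5), and Flt1 and Emcn held the motif while the other 3 did not. The motif stands in 29.5% of 32851 promoters of the same length, so 2 of 5 is near the share among all promoters. The 3 sequences printed are the promoters with a match and that of Tek, 1 of the genes on which the results below turn. They run 5′ to 3′ on the strand of the gene and end at the base before the start site, and capitals mark AGGAAG or its complement CTTCCT.
Flt1, chr5:147726012-147726261, minus strand: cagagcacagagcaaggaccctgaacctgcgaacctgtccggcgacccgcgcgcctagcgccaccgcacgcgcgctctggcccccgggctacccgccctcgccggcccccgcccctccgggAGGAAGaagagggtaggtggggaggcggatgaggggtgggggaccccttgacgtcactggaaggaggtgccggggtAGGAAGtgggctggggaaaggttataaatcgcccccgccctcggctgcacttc
Emcn, chr3:137340828-137341077, plus strand: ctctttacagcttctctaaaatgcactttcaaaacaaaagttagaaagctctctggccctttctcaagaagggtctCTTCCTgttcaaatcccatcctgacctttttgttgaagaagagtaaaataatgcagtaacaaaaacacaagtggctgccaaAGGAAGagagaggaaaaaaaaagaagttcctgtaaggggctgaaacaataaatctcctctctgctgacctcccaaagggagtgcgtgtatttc
Tek, chr4:94739039-94739288, plus strand: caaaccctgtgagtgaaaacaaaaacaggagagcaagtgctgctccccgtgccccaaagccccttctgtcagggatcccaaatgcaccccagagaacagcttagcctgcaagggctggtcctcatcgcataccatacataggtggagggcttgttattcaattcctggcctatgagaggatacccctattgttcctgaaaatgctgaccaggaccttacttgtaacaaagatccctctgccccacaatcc
In Flt1 the matches lie at -129 to -124 and at -53 to -48 relative to the start site, and in Emcn at -174 to -169, on the opposite strand, and at -93 to -88. Flt1 also holds TATAAA at -31 to -26, which does not overlap either match and occurs in 12.4% of all promoters. The related CGGAAG (13.6% of all promoters), the GATA motif AGATAA (9.99%) and the hypoxia motif ACGTG (16.6%) were in none of the 5. These matches describe the letters of the windows and not sites that were measured.

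The libraries held 10710277 to 36738954 counts each. Levels are given as CPM, that is, counts scaled to the TMM-normalized library total, and a count of 0 would allow up to 3 counts, or 0.0815 to 0.251 CPM depending on the library, a limit that covers counting error only. The markers had between 32 and 27345 counts in every library. Some libraries stood apart, and their values are given where they touch a result. C replicates 1 and 2, HC replicate 3 and CCC replicate 2 had the lowest summed level of 8 adipocyte markers (12332 to 22301 CPM, against 26053 to 130748 CPM in the other libraries) and the highest summed level of 3 nuclear-retained RNAs (20194 to 37138 CPM, against 2756 to 12364 CPM). CC_l replicate 1 had 3114 CPM of 5 spermatid genes, the next highest library, HC replicate 3, 434 CPM. The summed level of 6 genes of the epididymal epithelium was 1821 CPM in C replicate 1, against 12.4 and 25.7 CPM in the other C mice. In the H mice it was 341, 995 and 138 CPM. Adipoq, the defining adipocyte marker, was found in all 20 libraries at 493 to 8796 CPM.

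Per length of transcript, as TPM (counts divided by exonic length and scaled to the same total in each library), Cldn5 was the most abundant of the markers, with a median of 207 TPM over the 20 mice, followed by Gpihbp1 at 98.5 TPM. Esam, Cdh5 and Pecam1 had medians of 51.5, 47.1 and 43.4 TPM, Kdr and Flt1 of 21.4 and 18.1 TPM, and Emcn and Tek of 14.3 TPM each. Vwf was the least abundant at a median of 4.12 TPM. The rank of a marker varied between mice: Gpihbp1 ranked from 1 to 4 and Cldn5 1 or 2 in every mouse. The highest CPM of a marker over the 20 mice was between 16.6 times (Kdr) and 181 times (Gpihbp1) the lowest.

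**Figure D1:**
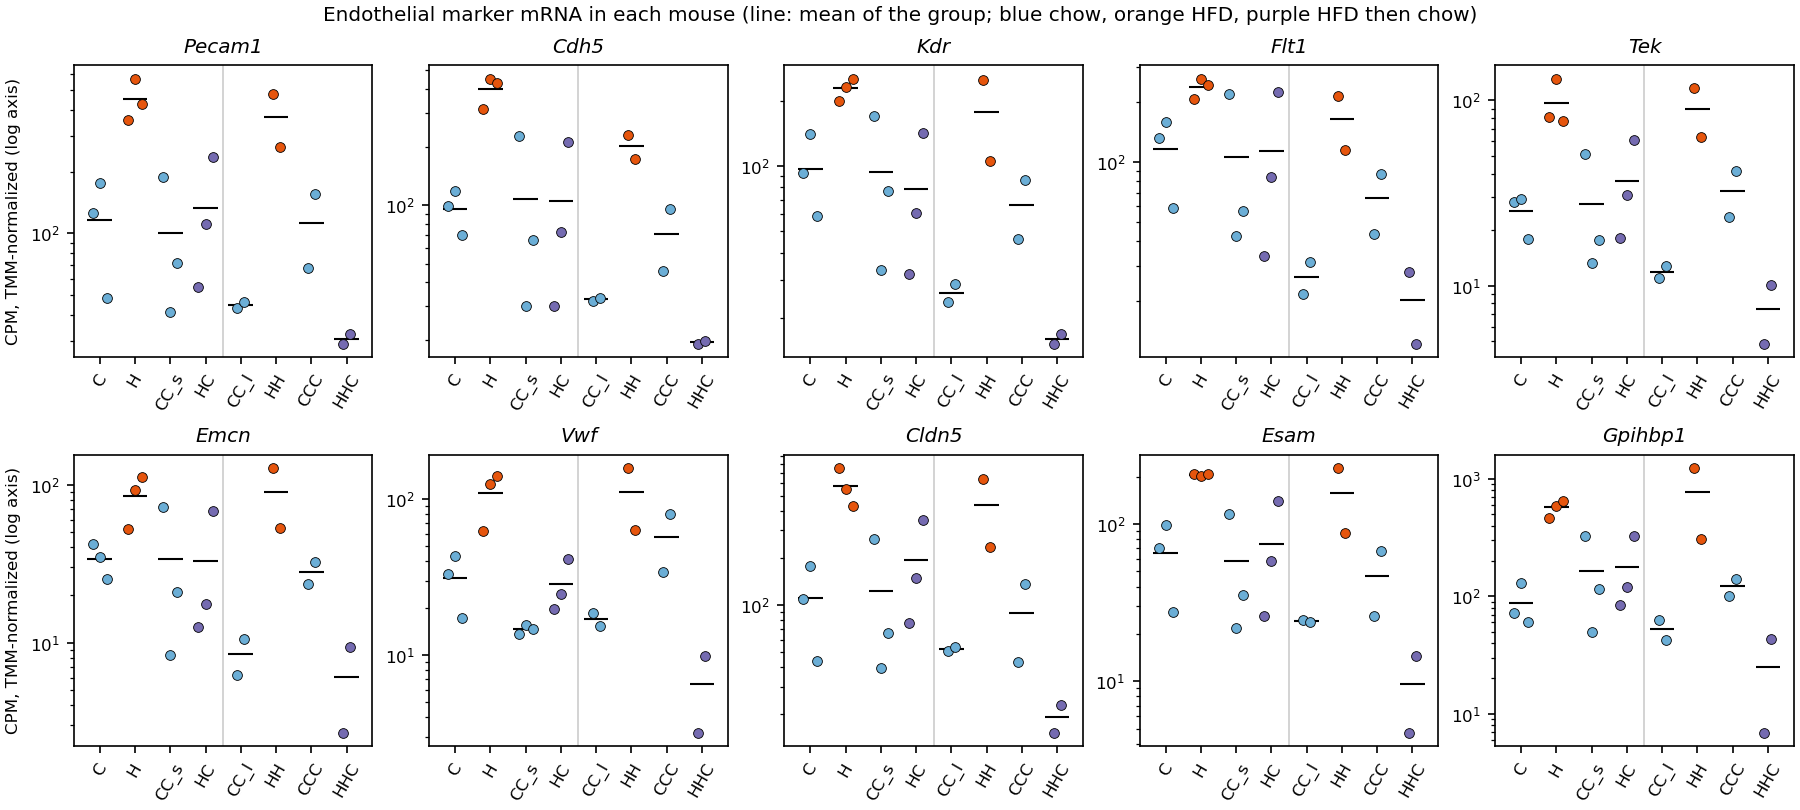
Level of each of the 10 endothelial markers in each of the 20 mice, in TMM-normalized CPM on a log axis with a different range in each panel; the line is the mean of the group, and the grey line parts the short arm (left, 3 mice per group) from the long arm (right, 2 mice per group). Every H mouse lies above every C mouse, every HH mouse above both CC_l mice and every HHC mouse below both CCC mice in all 10 panels, whereas HC and CC_s overlap in all but Vwf.

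In H, all 10 endothelial markers stood higher than in C, and 6 of them were differentially expressed genes (DEGs), that is, passed edgeR's quasi-likelihood test at a nominal p under 0.01 and differed by at least 1 on the log2 scale. The median log2 fold change of the 10 was 1.87 (range 1.03 to 2.72), against -0.15 over all 21464 genes tested. DEGs that were higher in H made up 3.57% of all genes tested, and genes with every H mouse above every C mouse, as all 10 markers had, made up 13.4%. After Benjamini-Hochberg adjustment over all genes none of the 10 had an adjusted p under 0.05 (2.12% of all genes had), while 8 of the 10 had a nominal p under 0.05 (17.1% of all genes), and DESeq2 gave 6 of the 10 an adjusted p under 0.05 (9.49% of all genes).

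Among the junction genes, Cldn5 had 110.1, 179 and 43.9 CPM in the C mice and 755, 552 and 427 CPM in the H mice. The lowest H mouse thus had more than 2 times the level of the highest C mouse. Cldn5 rose 5.21-fold (log2 fold change 2.38 ± 0.74 SE, adjusted p = 0.105). Cdh5 had 99.6, 119 and 70.0 CPM in C and 313, 452 and 429.6 CPM in H. All H mice were well above the C mice, and Cdh5 rose 4.14-fold (log2 fold change 2.05 ± 0.67 SE, adjusted p = 0.122). Pecam1 had 125, 176 and 48.2 CPM in C and 356, 569.5 and 427 CPM in H, a rise of 3.87-fold (adjusted p = 0.11). Esam was the least variable marker in H, at 207, 203 and 207 CPM, but spread from 27.7 to 98.8 CPM in C, so that its log2 fold change of 1.65 ± 0.70 SE did not make it a DEG although the groups did not overlap.

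Of the receptors, Tek was a DEG and the VEGF receptors were not. Tek had 28.3, 29.3 and 17.9 CPM in the C mice and 80.9, 131 and 76.7 CPM in the H mice. It rose 3.82-fold (log2 fold change 1.93 ± 0.53 SE) and had the lowest adjusted p of the 10 markers in this comparison, 0.0682. Kdr had 92.9, 139.9 and 58.7 CPM in C and 200.1, 232 and 253 CPM in H, with a log2 fold change of 1.23 (95% confidence interval 0.02 to 2.44). Flt1 had 131, 158 and 58.7 CPM in C and 206, 262 and 243 CPM in H, with a log2 fold change of 1.03 (95% confidence interval -0.36 to 2.42). For both VEGF receptors C replicate 2 came closest to the H mice. That Tek was called and Kdr and Flt1 were not was not tested as a difference between the genes.

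Among the surface and secreted proteins, Gpihbp1 had the largest change of the 10 markers in H. It had 72.1, 129 and 59.9 CPM in the C mice and 469, 594 and 656 CPM in the H mice, and rose 6.59-fold (log2 fold change 2.72 ± 0.77 SE, adjusted p = 0.0750). Vwf had 33.1, 43.3 and 17.3 CPM in C and 63.0, 126 and 140.1 CPM in H, and rose 3.51-fold (log2 fold change 1.81 ± 0.50 SE, adjusted p = 0.0698). Emcn had 41.9, 34.7 and 25.4 CPM in C and 52.1, 91.9 and 111 CPM in H, a log2 fold change of 1.32 ± 0.71 SE that did not pass the test. H replicate 1 was the lowest of the H mice for Emcn and Vwf and the highest for Cldn5.

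The number of DEGs among the markers in H rested on C replicate 3, the C mouse with the lowest level of all 10 markers and the highest of adipocyte markers. It was 6 with all mice (1392 of all 21464 genes) and 0 without C replicate 3 (1816 of 21405). It was 2 without C replicate 1 (972 of 21301) and 3 without H replicate 2 (757 of 21351). The median log2 fold change stayed between 1.55 and 2.09 when any 1 mouse was left out. Without the 4 libraries low in adipocyte markers, which leaves C with 1 mouse that is assumed to vary like the other groups, the median was 2.70.

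In HC, after WL in the short arm, no endothelial marker was a DEG against CC_s, where 1.57% of all genes were DEGs and higher in HC. The log2 fold changes ran from -0.26 (Kdr) to 0.96 (Vwf), 7 of 10 were positive, and their median of 0.25 was close to the median of 0.27 over all genes. No marker had a nominal p under 0.05, and no marker had an adjusted p under 0.05 (0% of all genes in edgeR's quasi-likelihood test, where 8.69% had a nominal p under 0.05). DESeq2 gave none of the 10 an adjusted p under 0.05 either, against 1.25% of all genes.

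The spread between mice was wide in both groups and set by 1 mouse in each. Cdh5 had 227, 30.0 and 66.0 CPM in the CC_s mice and 30.1, 72.8 and 213 CPM in the HC mice. CC_s replicate 1 and HC replicate 3 were far above the other mice of their groups, and the groups covered nearly the same range. Kdr followed with 170.3, 33.3 and 76.8 CPM in CC_s and 31.7, 61.0 and 141 CPM in HC (95% confidence interval of the log2 fold change -1.45 to 0.94). Gpihbp1 followed with 324, 49.6 and 115 CPM in CC_s and 84.9, 120.5 and 328 CPM in HC (-1.40 to 1.65). The median log2 fold change of the markers was 1.17 without CC_s replicate 1, -0.15 without CC_s replicate 2 and -0.57 without HC replicate 3, so its sign depended on these mice. CC_s replicate 1 had 115945 CPM of the adipocyte markers and HC replicate 3 had 13962 CPM, the highest and the lowest of their groups.

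Vwf was the only marker for which the HC and CC_s mice did not overlap, and 1 of 10 is near the share among all genes. It had 13.6, 15.6 and 14.8 CPM in the CC_s mice and 19.8, 24.7 and 41.3 CPM in the HC mice. The groups did not overlap, as for 8.01% of all genes (HC higher), and the log2 fold change was 0.96 (95% confidence interval -0.08 to 2.00, adjusted p = 0.588). In CC_s replicate 1, which had the highest level of its group of the other 9 markers, Vwf was the lowest of the group.

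In HH, after the longer HFD, all 10 endothelial markers were DEGs and higher than in CC_l. DEGs that were higher in HH made up 4.92% of all genes tested. The log2 fold changes ran from 2.63 to 3.89 with a median of 2.84, against -0.23 over all genes. All 10 markers had both HH mice above both CC_l mice, as had 26.3% of all genes with 2 mice a group. An adjusted p under 0.05 was reached by Tek and Vwf (2.07% of all genes), and DESeq2 gave all 10 an adjusted p under 0.05 (9.13% of all genes).

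The CC_l mice lay close together and the HH mice apart. Gpihbp1 had 62.8 and 42.2 CPM in the CC_l mice and 1247 and 306 CPM in the HH mice. HH replicate 1 thus had the highest level of Gpihbp1 of all 20 mice, and the rise was 14.8-fold (log2 fold change 3.89 ± 0.99 SE, adjusted p = 0.0518). Emcn, at 6.22 and 10.6 CPM in CC_l and 128 and 52.8 CPM in HH, rose 10.8-fold (log2 fold change 3.43 ± 0.95 SE, adjusted p = 0.0693). HH replicate 1 was the higher HH mouse for all 10 markers.

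Of the receptors, Tek had 10.98 and 12.7 CPM in CC_l and 116 and 63.4 CPM in HH, a rise of 7.57-fold (log2 fold change 2.92 ± 0.68 SE, adjusted p = 0.0349). Kdr rose from 23.7 and 28.6 CPM in CC_l to 249 and 105 CPM in HH, and Flt1 from 21.7 and 31.4 CPM to 213 and 115 CPM. These were rises of 6.78-fold for Kdr (adjusted p = 0.0618) and 6.19-fold for Flt1 (adjusted p = 0.121). Vwf had 18.6 and 15.5 CPM in CC_l and 159 and 63.4 CPM in HH, a rise of 6.53-fold (log2 fold change 2.71 ± 0.64 SE, adjusted p = 0.0367).

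The junction genes changed by similar factors. Cldn5 rose from 50.9 and 53.7 CPM to 636 and 235 CPM (8.33-fold), Pecam1 from 43.2 and 46.2 CPM to 477 and 264 CPM (8.28-fold), Esam from 24.5 and 23.9 CPM to 228 and 87.2 CPM (6.51-fold) and Cdh5 from 32.0 and 33.3 CPM to 231 and 174 CPM (6.19-fold). In each of these 4 genes the lower HH mouse had more than 3 times the level of the higher CC_l mouse. With 1 mouse of HH or CC_l left out, the median log2 fold change of the markers was between 2.31 and 3.29. The number of DEGs among the markers, 10 with all mice, depended on the mouse left out, as did the number over all genes. Leaving out a mouse of the long arm leaves its group with 1 mouse, here and for HHC and CCC, whose spread is assumed to be that of the other groups. CC_l replicate 1, the library with spermatid RNA, and CC_l replicate 2 differed little in the summed level of the 10 markers, at 294 and 298 CPM.

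The effects of 12 and of 25 weeks of HFD were not shown to differ. The log2 fold change in HH was larger than in H for all 10 markers, by a median of 1.08, but no marker had an adjusted p under 0.05 for the difference of effects (edgeR's quasi-likelihood test, lowest adjusted p = 0.855, 0% of all genes called) or a nominal p under 0.05 (5.79% of all genes), and DESeq2 called none of the 10 (0.219% of all genes). For Emcn, with the largest difference, the 95% confidence interval was -0.27 to 4.48. The highest levels of the arms were close, at 2701 to 3214 CPM for the summed markers in the H mice and 1465 and 3683 CPM in the HH mice. The chow groups were less alike, at 428 to 1106 CPM in C and 294 and 298 CPM in CC_l. Age, length of HFD and the library series S086 and S087 of the labels cannot be told apart in comparisons between the arms.

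In HHC, after WL in the long arm, the direction was opposite. All 10 endothelial markers stood lower than in CCC, with log2 fold changes from -3.11 to -1.70 and a median of -2.16, against -0.06 over all genes. Vwf and Tek were DEGs, where DEGs that were lower in HHC made up 2.67% of all genes. Both HHC mice were below both CCC mice for all 10 markers, as for 20.3% of all genes. No marker had an adjusted p under 0.05 (0% of all genes in edgeR's quasi-likelihood test), 9 of the 10 had a nominal p under 0.05 (10.7% of all genes), and DESeq2 gave 1 of the 10 an adjusted p under 0.05 (2.13% of all genes).

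Vwf had 34.1 and 80.1 CPM in the CCC mice and 3.18 and 9.91 CPM in the HHC mice. Both HHC mice were well below both CCC mice, and Vwf fell by 3.11 on the log2 scale (SE 0.65, adjusted p = 0.161). Tek had 23.3 and 41.6 CPM in CCC and 4.86 and 10.0 CPM in HHC, and fell by 2.12 on the log2 scale (SE 0.66, adjusted p = 0.278). Kdr had 46.1 and 85.8 CPM in CCC and 15.3 and 16.9 CPM in HHC (log2 fold change -2.04 ± 0.72 SE, adjusted p = 0.326). The HHC mice lay close together for Kdr, Pecam1 (29.0 and 32.3 CPM) and Cdh5 (19.3 and 19.9 CPM) and far apart for Gpihbp1 (6.87 and 43.3 CPM) and Emcn (2.68 and 9.37 CPM).

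Both CCC mice bore on the size of this difference. CCC replicate 2, low in adipocyte markers (12332 CPM), was the higher CCC mouse for all 10 markers. Without it the median log2 fold change was -1.48, and without CCC replicate 1 it was -2.45. Without HHC replicate 1, the shallowest library, it was -1.82, and without HHC replicate 2 it was -2.65. The number of DEGs among the markers also depended on the mouse left out, as did the number over all genes. Against the younger CC_l mice, which were not their controls, the HHC mice were also lower in the mean log2 CPM of the markers: it was 3.24 and 4.08 in HHC and 4.61 and 4.72 in CC_l, and these are given side by side only.

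**Figure D2:**
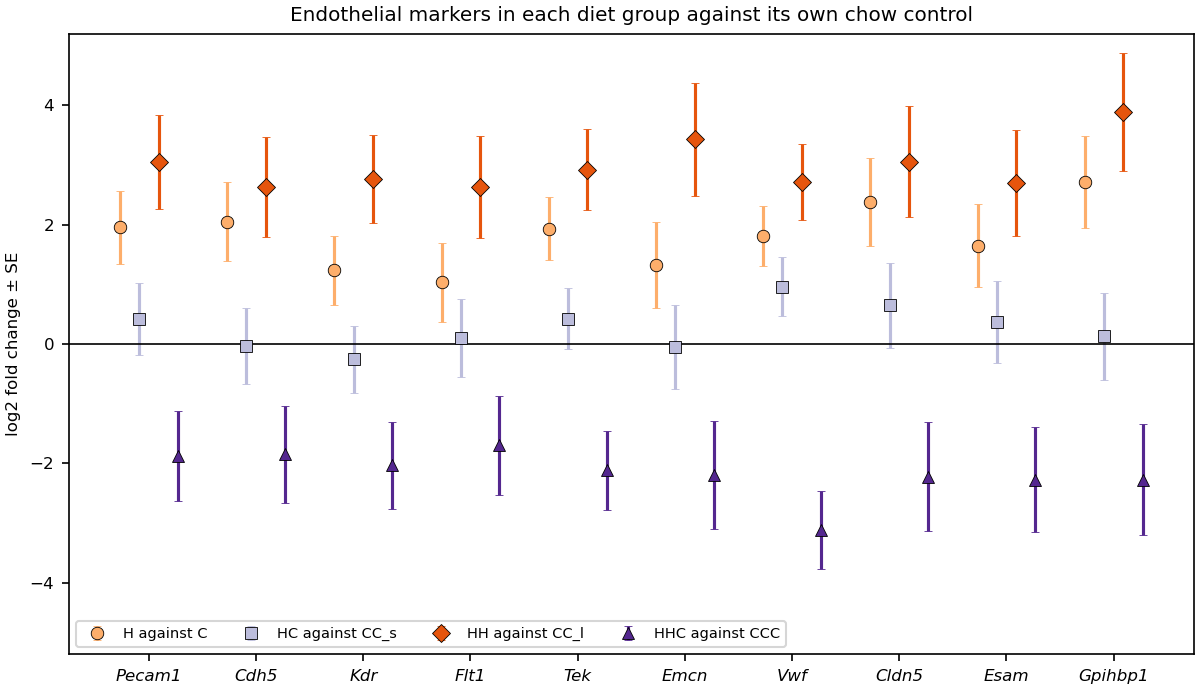
Log2 fold change of each endothelial marker in the 4 diet groups, each against its own chow control (points, edgeR's quasi-likelihood fit; bars, SE). The points of HH lie above those of H, those of HC lie around 0 between -0.26 and 0.96, and those of HHC lie between -3.11 and -1.70.

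The effect in HH and the effect in HHC differed for 5 of the 10 markers, by a test of the difference itself with an adjusted p under 0.05 (0.815% of all genes in edgeR's quasi-likelihood test). The difference was positive for all 10, with a median of 5.01 on the log2 scale. It was 5.82 ± 0.91 SE for Vwf (adjusted p = 0.0179), 5.04 ± 0.95 SE for Tek (adjusted p = 0.0299), 4.80 ± 1.03 SE for Kdr (adjusted p = 0.0395), 6.16 ± 1.36 SE for Gpihbp1 (adjusted p = 0.042) and 4.92 ± 1.09 SE for Pecam1 (adjusted p = 0.0423). The other 5 had adjusted p-values of at most 0.0903. The controls of the long arm differed as well: the CCC mice stood above the CC_l mice for 9 of 10 markers without overlap (17.6% of all genes), with a median log2 fold change of 1.32 and no DEG (0.755% of all genes were DEGs and higher in CCC). These calls depended on the processing. Of the markers, 5 were called here (175 of all 21464 genes), 1 with RLE normalization (21 genes) and 2 with halved counts (109 of 19006). With the replicate number as a block 0 markers were called (1 gene). DESeq2 called all 10 markers (1212 of 21464 genes), as did the fit without the filter on low counts (1266 of 34443). The median difference was 4.15 without the 4 libraries low in adipocyte markers, and then 0 were called, but CCC then held 1 mouse, which is assumed to vary like the other groups.

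In the short arm the difference of effects was smaller. The log2 fold change in H exceeded that in HC for all 10 markers (differences of 0.85 to 2.59), but no marker had an adjusted p under 0.05 (0% of all genes in edgeR's quasi-likelihood test). Gpihbp1 and Cdh5 had a nominal p under 0.05 for it, a share near the 11.8% of all genes, and DESeq2 gave none an adjusted p under 0.05 (1.9% of all genes). The chow groups of this arm were similar to each other in the markers: CC_s against C had a median log2 fold change of -0.03, no marker was a DEG (0.592% of all genes were DEGs and higher in CC_s, 1.85% lower), and only Vwf was lower without overlap (7.39% of all genes). The effects in HHC and HC did not differ for any of the 10 markers at an adjusted p under 0.05 (lowest adjusted p = 0.343, 0% of all genes called in edgeR's quasi-likelihood test). A nominal p under 0.05 was reached by 5 of the 10 (11.8% of all genes), and DESeq2 called 1 (1.37%).

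Over the 8 groups, the mean log2 CPM of the 10 markers was lowest in HHC (3.66 ± 0.59 SD, n = 2), followed by CC_l (4.66 ± 0.08 SD, n = 2), CC_s (5.71 ± 1.14 SD, n = 3), CCC (5.87 ± 0.72 SD, n = 2), C (5.98 ± 0.65 SD, n = 3) and HC (6.04 ± 1.09 SD, n = 3). HH (7.52 ± 0.83 SD, n = 2) and H (7.87 ± 0.22 SD, n = 3) were the highest. The neighbours CC_s, CCC, C and HC overlapped widely, CC_s reached down to 4.69 within the range of CC_l, and HC reached up to 7.19 within the range of HH. HHC did not overlap with CC_l, nor H with HC.

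The markers moved together across mice. Over the 20 libraries, the Pearson correlations of log2 CPM for the 45 pairs of markers had a median of 0.94 (range 0.73 to 0.98), with a median Spearman correlation of 0.94. The median correlation of a marker with any other tested gene was 0.04, and 0.166% of those correlations were above the median of the marker pairs. These points share their libraries and the group differences described above. With the mean of each group subtracted, so that only differences between mice of the same group remained, the median was 0.87 (range 0.36 to 0.95). It was 0.93 in the 12 libraries of the short arm and 0.96 in the 8 libraries of the long arm. With group means subtracted it was 0.93 in the short arm and 0.80 in the long arm, where pairs of mice leave few free differences.

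Esam, Tek and Pecam1 followed the other 9 markers most closely (Pearson r with their mean of 0.98 each, Spearman 0.98, 0.97 and 0.99). Vwf followed them least (Pearson r = 0.86, Spearman 0.80, and 0.79 without the 2 mice farthest from the median of the other markers). With group means subtracted, r was 0.61 for Vwf and between 0.83 and 0.97 for the other 9. Vwf was in the lowest pair of all, with Flt1 (r = 0.73), and Cldn5 and Esam were the highest pair (r = 0.98). CC_s replicate 1 stood farthest from the rest: its Vwf was 2.32 on the log2 scale below what the other 9 markers and the usual offset of Vwf give. Next came Gpihbp1, 1.64 below, and Flt1, 1.41 above, both in HHC replicate 1. Relative to the other markers of the same mouse, the SD over 20 mice fell from between 1.28 and 1.75 to between 0.28 and 0.75 on the log2 scale.

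**Figure D3:**
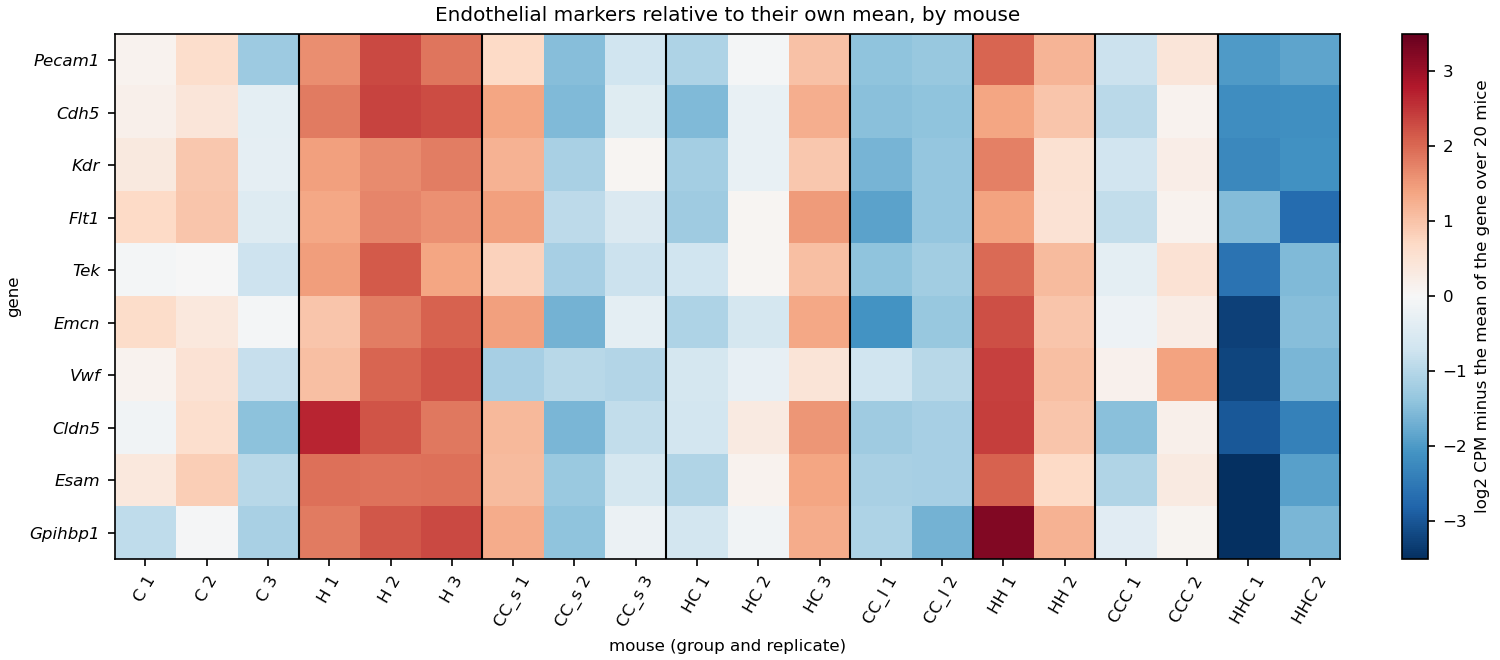
Log2 CPM of each endothelial marker (rows) in each mouse (columns, ordered by group and replicate) after subtracting the mean of the gene over the 20 mice; red is above and blue below that mean. Columns are mostly of a single colour, with CC_s replicate 1 high in all markers except Vwf and HHC replicate 1 the lowest column.

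The protein coding genes outside the 10 whose pattern was most like the mean of the markers over the 20 libraries were Adgrl4, Btnl9, Mmrn2, Shroom4, Cdh13, Ptprb, Abcc9, Sept4, Aqp1 and Sox18, with Pearson r between 0.97 and 0.99. The median over 16254 protein coding genes was 0.03 and their 99th percentile 0.89. Adgrl4 (r = 0.99, 0.98 with group means subtracted) is an adhesion receptor known from endothelium. Mmrn2 is an endothelial matrix protein, Ptprb a phosphatase that acts on Tek and Cdh5, Aqp1 a water channel of capillaries, Sox18 a transcription factor of endothelial cells, and Abcc9 a potassium channel subunit known from pericytes. Of these 10 genes, chosen for their likeness, 4 were DEGs and higher in H, 10 in HH and 0 in HC, and 2 (Adgrl4 and Mmrn2) were DEGs and lower in HHC. Adgrl4 had 53.8, 74.0 and 35.5 CPM in C, 129.6, 222 and 199 CPM in H, 15.2 and 17.0 CPM in CC_l and 260.2 and 113 CPM in HH, and then 33.8 and 81.7 CPM in CCC and 6.37 and 12.9 CPM in HHC. As for the markers, H stood above C, HH above CC_l and HHC below CCC without overlap. Because these genes were chosen by likeness over the same libraries, their counts and levels are no separate support for the pattern.

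A list of 20 other endothelial genes had 7 DEGs higher in H (median log2 fold change 1.48), 12 higher in HH (2.73), 7 lower in HHC (-1.90) and 0 in HC (0.28). Over all genes tested, 3.57% were DEGs and higher in H, 4.92% higher in HH, 2.67% lower in HHC and 1.57% higher in HC. The same shares stand beside the counts of the lists below. Eng, a co-receptor for TGF-beta family ligands, rose 6.31-fold in H (adjusted p = 0.0120) and 7.26-fold in HH (adjusted p = 0.0292). S1pr1, a receptor for sphingosine-1-phosphate, rose 7.72-fold in H (adjusted p = 0.0153) and 7.63-fold in HH (adjusted p = 0.0434), and Sox7 fell by 2.97 on the log2 scale in HHC (adjusted p = 0.161). The summed CPM of the 20 genes followed the mean log2 CPM of the 10 markers with r = 0.99 over the 20 libraries (0.98 with group means subtracted). Here and below, the summed CPM of a list entered a correlation on the log2 scale. Nos3, the endothelial nitric oxide synthase, was named after its values were seen because it did not follow: its r with the mean of the markers was -0.12, and it had 11.3, 18.1 and 49.0 CPM in C and 36.0, 30.6 and 42.9 CPM in H, which overlap.

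Genes of single vessel types were listed as well. Of 5 capillary genes, Car4 and Cd300lg were DEGs and higher in H, and these 2 with Aqp1 and Btnl9 in HH, where Car4, a carbonic anhydrase, rose 19.6-fold (adjusted p = 0.0307). The remaining gene, Rgcc, singled out after its values were seen, had r = -0.49 with the mean of the markers. Of 5 arterial genes, 1 (Efnb2, an ephrin) was a DEG in H, 3 (Efnb2, Dll4 and Hey1, the last 2 of the Notch pathway) in HH, and 1 (Gja4, a gap junction protein) was lower in HHC. Of 4 venous genes, 1 (Ackr1, a chemokine-binding receptor of venules) was a DEG in H, rising 7.49-fold (adjusted p = 0.0462), and 2 (Ackr1 and Selp, which encodes P-selectin) in HH. In H, 3 of the 4 had a positive log2 fold change. Nr2f2, named after its values were seen, was lower, with a mean of 143 CPM in C and 73.8 CPM in H. The summed CPM of the 4 genes overlapped, at 159 to 184 in C and 126 to 187 in H. No lymphatic gene of 5 was a DEG in any of the 4 comparisons. Prox1, which defines lymphatic endothelium, had at most 4.98 CPM in any library, and the median r of the lymphatic list with the markers was 0.34.

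**Figure D4:**
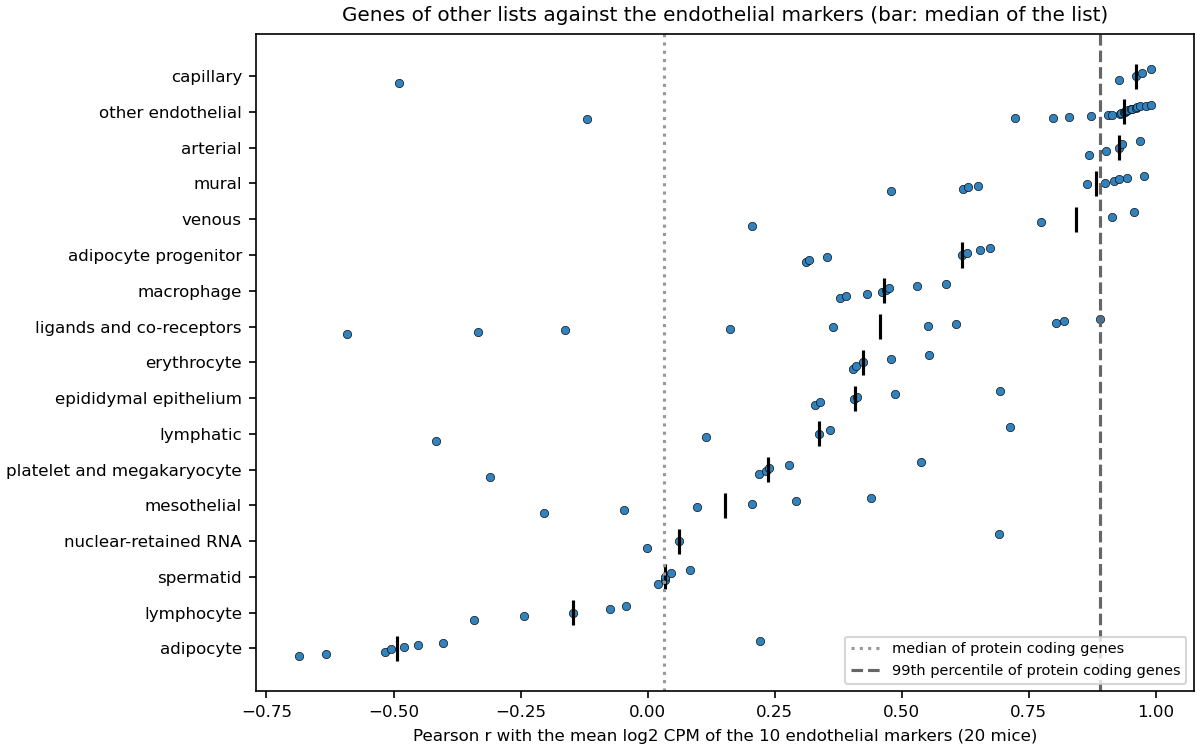
Pearson correlation, over 20 mice, of each gene of the other lists (points) with the mean log2 CPM of the 10 endothelial markers; bars are list medians, and the dotted and dashed lines are the median and the 99th percentile over 16254 protein coding genes. Capillary, other endothelial and arterial lists have medians above 0.92, mural genes one of 0.88, and adipocyte genes one of -0.49.

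The ligands of the receptors did not share 1 pattern. Vegfa, the main ligand of Kdr, had 210.3, 271 and 93.0 CPM in the C mice and 27.8, 23.0 and 42.0 CPM in the H mice. Every H mouse was below every C mouse, and Vegfa fell by 2.63 on the log2 scale (SE 0.51, adjusted p = 0.0139), opposite in sign to the log2 fold changes of Kdr and Flt1 in the same libraries. The 2 highest C mice were the libraries low in adipocyte markers and high in nuclear-retained RNA, whose part in this was not tested. Vegfa was also a DEG and lower in HHC (83.3 and 338 CPM in CCC, 39.2 and 38.1 CPM in HHC, adjusted p = 0.202) and was 44.3 and 82.9 CPM in CC_l and 34.8 and 18.4 CPM in HH (log2 fold change -1.25 ± 0.60 SE, not a DEG). Its r with the mean of the markers was -0.16.

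Angpt1, an activating ligand of Tek, had 17.8, 14.6 and 15.9 CPM in C and 4.64, 5.82 and 5.999 CPM in H, and fell by 1.56 on the log2 scale (adjusted p = 0.103). The C mice lay close together and all above the H mice. Angpt2, a context-dependent ligand of Tek that was named after its values were seen, followed the markers (r = 0.89 with their mean). It had 7.30, 12.7 and 3.40 CPM in C and 17.4, 26.5 and 43.0 CPM in H, 2.53 and 4.72 CPM in CC_l and 28.8 and 21.1 CPM in HH, and 9.08 and 13.2 CPM in CCC and 3.94 and 0.754 CPM in HHC. None of these groups overlapped with its control. Of all genes, 13.4% were higher without overlap in H, 26.3% higher in HH and 20.3% lower in HHC. Angpt2 was not a DEG (log2 fold changes of 1.90 in H, 2.79 in HH and -2.27 in HHC). Pgf and Vegfc, further VEGF family ligands named after their values were seen, had r = 0.80 and 0.61 with the markers and were not DEGs either, and Vegfb had r = -0.59. Nrp1, a co-receptor for VEGF (r = 0.82), had 106 and 183 CPM in CC_l and 661 and 629 CPM in HH and was a DEG there (4.46-fold, adjusted p = 0.0528). Of the list of 10 ligands and co-receptors, 2 were DEGs and lower in H (Vegfa and Angpt1), 0 in HC, 1 was higher in HH (Nrp1) and 1 was lower in HHC (Vegfa). Lpl, whose protein binds Gpihbp1, was a DEG in none of the 4 comparisons (log2 fold changes from -0.53 to 0.65).

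Markers of other cell types were measured in the same libraries, and their part in the results above was not tested. Most mural genes, of the pericytes and smooth muscle cells around vessels, moved with the endothelial markers, but not all did in H. Of 10, 2 (Kcnj8 and Abcc9) were DEGs and higher in H, 5 in HH and 2 lower in HHC (Kcnj8 and Mcam). A positive log2 fold change was found for 7 in H, 10 in HH and 0 in HHC. Myh11, Mcam and Cspg4, named after their values were seen, had lower means in H than in C. These means were 275 CPM in C and 52.98 CPM in H for Myh11, and 381 and 282 CPM for Mcam. The C mean of Myh11 rested on C replicate 1, which had 764 CPM of it, the highest of the 20 libraries. The same mouse was the highest for Mcam (506 CPM) and Cspg4 (68.8 CPM). Acta2 followed the mean of the markers least (r = 0.48, and -0.24 with group means subtracted). The summed CPM of the 10 mural genes had r = 0.90 with that mean (0.66 with group means subtracted). It was 457 to 2186 CPM in C, 1739 to 1833 CPM in H, 358 and 432 CPM in CC_l, 1040 and 1755 CPM in HH, 543 and 875 CPM in CCC and 292 and 299 CPM in HHC. C replicate 1 was the highest of all 20 libraries in mural genes.

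Macrophage markers had another pattern. Of 8, there were 6 DEGs in both H and HC and 8 in HH, all higher, and 0 in HHC, where the endothelial markers were lower. Their summed CPM was 186 to 345 in C and 598 to 3253 in H, 210 to 279 in CC_s and 546 to 1384 in HC, and r with the mean of the endothelial markers was 0.49. In HC they did not overlap with CC_s while the endothelial markers did. Whether the lists differ in HC was not tested.

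The adipocyte markers ran against the endothelial ones: the summed CPM had r = -0.45 with the mean of the markers over the 20 libraries (-0.54 with group means subtracted), and 1 of 8 adipocyte markers (Lep, higher in H) was a DEG in the 4 comparisons. It was 20298 to 130748 CPM in C, 31219 to 57547 CPM in H, 58187 and 62967 CPM in CC_l, 26053 and 32062 CPM in HH, 12332 and 71030 CPM in CCC and 48868 and 84656 CPM in HHC. C replicates 1 and 2, lower in adipocyte markers than any H mouse, were also lower than every H mouse in all 10 endothelial markers. These 2 libraries had 29896 and 37138 CPM of nuclear-retained RNA as well, and the part of these levels in the difference between H and C was not tested. The summed CPM of 7 adipocyte progenitor genes had r = 0.69 with the mean of the endothelial markers (0.42 with group means subtracted). Of the 7, 3 were DEGs in H, 5 in HH and 1 in HC, all higher, and 0 in HHC. In H, 5 of the 7 had a positive log2 fold change, with a median of 0.36.

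Of platelet and megakaryocyte genes, which share Vwf with endothelium, 1 of 6 (Pf4, 5.47-fold higher, adjusted p = 0.0181) was a DEG in HH and 0 in the other comparisons, and Gp9 and Treml1 were at 0 in 2 and 6 libraries and at most 1.16 CPM. Of 5 erythrocyte genes and 5 lymphocyte genes none was a DEG in the 4 comparisons. Of 6 mesothelial genes, 2 were lower in H and 2 in HHC. Of 6 genes of the epididymal epithelium, 1 (Lcn8) was a DEG, in H, with groups that overlapped. Nuclear-retained RNA had 1 DEG of 3, Neat1, lower in H, and 3 of 5 spermatid genes were DEGs and higher in HC, where HC replicate 3 held them.

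**Figure D5:**
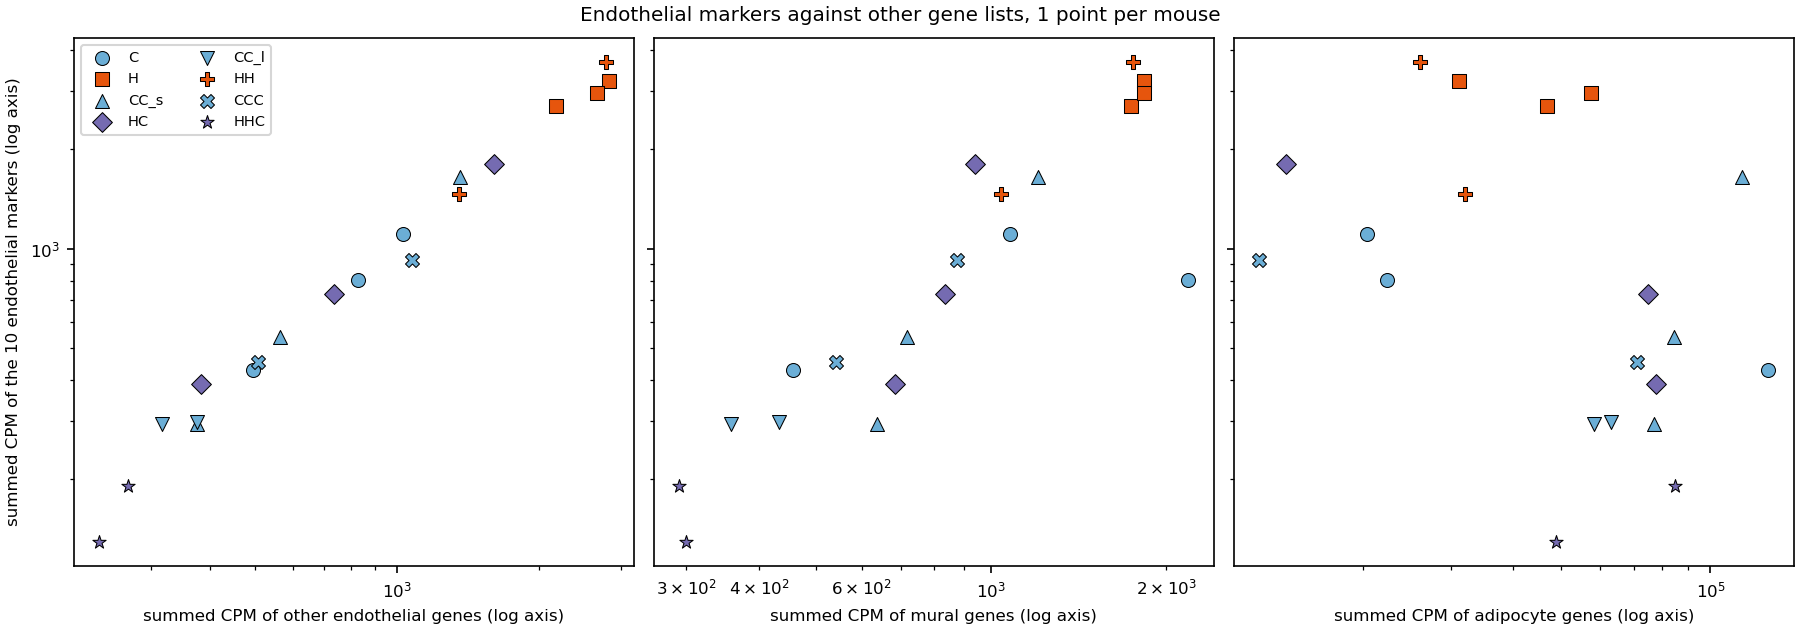
Summed CPM of the 10 endothelial markers (vertical, log axis) against the summed CPM of 20 other endothelial genes, 10 mural genes and 8 adipocyte genes (horizontal, log axes), 1 point per mouse with a symbol for each group. The points rise along a line for the other endothelial genes, rise with C replicate 1 apart at 2186 CPM for the mural genes, and show a loose fall for the adipocyte genes, with the 2 HHC mice lowest at 129 and 192 CPM of the markers.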

How the data were processed

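TRAP–seq libraries of epiAT from 20 mice were used. According to the submitters' processing notes and the methods, the authors checked reads with FastQC 0.11.9, trimmed them with Trim Galore 0.6.6, aligned them to mm10 with HISAT2 2.2.1, counted them on genes with featureCounts (Subread 2.0.1) and deposited raw counts per gene and mouse, without normalization. The annotation, strand setting and pair handling are not given in the sources used here. As 89.6% to 95.8% of counts from 1 to 10 were even, halved counts were tried. Oligo-dT priming and tagmentation keep no strand.

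From these counts, 21464 of 46078 genes passed filterByExpr and were fitted with all 20 libraries in 8 groups by edgeR 4.0.16 (R 4.3.3; TMM, quasi-likelihood test, Benjamini-Hochberg adjustment over all genes tested). DEGs had a nominal p under 0.01 and differed by at least 1 on the log2 scale, after the study's rule. CPM are TMM-normalized, log2 CPM used a prior count of 2, and TPM used exonic lengths of GENCODE vM21, which also gave symbols for 45229 rows. Non-overlap is a description. Labels give separate mice, so p-values measure the spread between mice. Named genes were the 10 members, the 10 protein coding genes with the highest Pearson r to their mean, and DEGs of the other lists. The members and lists were chosen with earlier results of these data known. Correlations of same-numbered mice did not show a shared origin, so no block was used in the main fit. With 2 or 3 mice per group they cannot exclude one. The test was checked on simulated counts. Alternatives were RLE normalization, DESeq2 1.42.0, no filter, only the compared groups, a replicate block, halved counts, and leaving out mice. Figures used matplotlib 3.10.9.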

Additional observations from a re-analysis of the deposited data

Results flagged for a closer look

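Of the endothelial markers, 5 had an effect in HH that differed from the effect in HHC, each against its own chow control, by a test of the difference itself in edgeR's quasi-likelihood fit with an adjusted p under 0.05. The difference on the log2 scale was 5.82 for Vwf, 5.04 for Tek, 4.92 for Pecam1, 6.16 for Gpihbp1 and 4.80 for Kdr. For each of these genes, as for all 10 markers, both HH mice were above both CC_l mice and both HHC mice below both CCC mice. Over all genes, 26.3% had the first and 20.3% the second. The same mice enter the test, so this is no separate support for it. Groups held 2 or 3 mice, so that no mouse was tested as standing apart from its group.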

How the results depend on the processing

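The median log2 fold change of the markers kept its direction in H, HH and HHC under every alternative run, and in HC it did not. With an adjusted p under 0.05 as the threshold, 0 markers were called in H, 2 in HH and 0 in HHC (2.12%, 2.07% and 0% of all genes). In the main fit, 1392 of all 21464 genes were DEGs in H and 669 in HHC. RLE normalization gave 3 DEGs among the markers in H (1399 of 21464 genes) and 1 in HHC (577). Testing without a filter gave 9 in H (2492 of 34443) and 10 in HHC (1266 of 34443). In HHC, 1 marker was a DEG with halved counts (547 of 19006) and 1 with only the compared groups (218 of 15807). Leaving out 1 mouse at a time, the DEGs among the markers numbered 0 to 5 in H (757 to 1816 over all genes), and the median in HC ran from -0.57 to 1.17. The median ran from 2.31 to 3.29 in HH and from -2.65 to -1.48 in HHC, in fits that left a group with 1 mouse. Without the 4 libraries low in adipocyte markers, an alternative chosen after seeing the data, the median was 2.70 in H, -0.64 in HC and -1.40 in HHC. The effects of HH and HHC differed for 5 markers, for 1 with RLE normalization, 10 with DESeq2, 10 without the filter, 2 with halved counts and 0 without the 4 libraries. Those of H and HC differed for 1 without the filter, and those of HHC and HC for 1 with DESeq2 and 5 without the filter. Without the filter, 1403 of all 34443 genes were called for H and HC, 781 for HHC and HC and 1266 for HH and HHC. DESeq2 called 294 of 21464 genes for HHC and HC and 1212 for HH and HHC. The cause of these changes was not tested.

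Against CC_s, the log2 fold change in HC turned to 0.11 for Cdh5 and 0.10 for Emcn without the filter, and without the 4 libraries to -0.35 for Pecam1, -0.92 for Flt1, -0.24 for Tek, -0.20 for Cldn5, -0.54 for Esam and -0.75 for Gpihbp1. Leaving out 1 mouse at a time, it ran from -0.27 to 1.25 for Pecam1, -1.07 to 1.13 for Cdh5, -1.02 to 0.51 for Kdr, -0.85 to 1.19 for Flt1, -0.17 to 1.25 for Tek, -1.18 to 1.15 for Emcn, -0.12 to 1.87 for Cldn5, -0.47 to 1.38 for Esam and -0.67 to 1.11 for Gpihbp1. The median correlation of marker pairs was 0.87 with group means subtracted.

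A replicate number is all that the labels give mice of different groups in common. The deviations of same-numbered mice from their group means had correlations of -0.17 to 0.19 in H and C and -0.28 to 0.06 in HC and CC_s. They were -0.19 in HH and CC_l and -0.26 in HHC and CCC. With 2 mice per group, differently numbered mice must have the same value with the opposite sign (0.19 and 0.26). These correlations therefore cannot decide whether same-numbered mice share an origin. With the number as a replicate block, the markers had 7 DEGs in HH, 3 in H, 1 in HHC and 0 in HC. Over all 21464 genes there were 1040, 1032, 375 and 204. With this block 0 markers had a difference between the effects of HH and HHC (1 of all genes). With crossed numbers in the long arm, also added after seeing the data, 6 markers were DEGs in HH (1050 of all genes) and 1 in HHC (364). The lowest count of a marker, 32, was that of Emcn in HHC replicate 1, the shallowest library with 10710277 counts.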
